A study of Homo sapiens with 9 samples.

Results

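Genes for collagens and the other structural proteins of the extracellular matrix, together with enzymes that modify them, were followed in WI-38 cells after doxorubicin. The members were taken by gene symbol from the authors' table of doxorubicin against control. The symbols cover collagens, laminins, nidogens, fibronectin, fibrillins, fibulins, elastin, latent TGF-β binding proteins, thrombospondins, matrilins, tenascin C, proteoglycans, hyaluronan synthases, heparan sulfate sulfatases, lysyl oxidases and collagen hydroxylases. Of the 6499 genes in the table, 59 matched. Of these, 56 are genes for matrix proteins or matrix enzymes, and 3 (LOXL1-AS1, THBS1-AS1 and THBS1-IT1) are non-coding RNAs that lie at matrix genes and were kept apart. GENCODE release 29 annotates 116 protein-coding genes with such symbols, and those that the table does not list were not analysed here.

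WI-38 is a cell line of normal human lung fibroblasts that stops dividing after a limited number of passages, and all cells here were at population doubling 30. In the doxorubicin group (3 libraries) doxorubicin was given at 1 μM over 12 h, after which the cells were held in medium with DMSO for 48 h, and in the control group (3 libraries) DMSO stood in place of doxorubicin, followed by the same DMSO medium. Doxorubicin is an anthracycline that breaks DNA through topoisomerase II and is used to bring cultured fibroblasts into senescence. A further group, given oridonin after doxorubicin, was not analysed here. All libraries come from 1 cell line, and nothing in the labels says whether libraries of a group came from separate cultures, so that the p-values given measure the spread between these libraries, which may be technical.

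Fibroblasts are the main makers of the interstitial matrix. Fibrillar collagens are made as procollagen chains that are hydroxylated and folded in the endoplasmic reticulum, trimmed outside the cell, and cross-linked by lysyl oxidases. Collagen IV, laminins and nidogens build the basement membrane, whereas elastin is laid down on fibrillin microfibrils with the help of fibulins. Fibronectin is the adhesive glycoprotein on which much of this matrix is assembled.

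The values are TPM (transcript abundance scaled to gene length and to the same total in each library), a unit that was inferred because the table does not name it. Log2 fold changes of doxorubicin over control were fitted with limma on log2(TPM + 1) over the 5721 listed genes whose mean reached 1 TPM, a scale that understates the change of low genes. A gene was called higher or lower at a fold change over 1.2 and an adjusted p under 0.05 (limma, Benjamini-Hochberg over the 5721 genes). The listed genes were read as those that passed the authors' thresholds on the same libraries. The fit therefore gives the size of each change and its spread and is no independent test. On the TPM values 1645 of the 5721 tested genes were not called, and the authors' own comparison was not used here. The log2 fold changes of the tested genes had a sparse range between -0.2 and 0, with 113 genes, against 381 between -0.4 and -0.2 and 866 between 0 and 0.2. The median over all tested genes (-0.28) describes the listed genes and is no measure of unchanged genes. The depth of each library is unknown, since TPM does not record it. All listed genes together made up 54.3 to 54.8% of the total in control and 58.6 to 60.0% after doxorubicin. With 3 libraries against 3, an exact two-sided permutation test of 1 gene cannot give a p below 0.1.

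The matrix genes were mostly lower after doxorubicin. Of the 50 matrix genes tested, 38 were called lower and 5 higher, and 7 were not called. Among all 5721 genes tested, 71.2% were called, 48.5% lower and 22.7% higher. The median log2 fold change of the matrix genes was -0.61, and it was -0.28 over all tested genes. The groups did not overlap in 44 of the 50 matrix genes, against 80.7% of all tested genes. Every doxorubicin library lay below every control library in 38 of the 50 matrix genes and in 2769 of all 5721 tested genes. The mean TPM was less than 0.5 times that of control in 11 matrix genes and more than 2 times in 2 matrix genes, COL7A1 and SULF2. The same counts over all tested genes are not given here, so no comparison is drawn from them. In RNA of whole cultures, fewer cells that make a transcript and less of it per cell cannot be told apart.

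**Figure D1:**
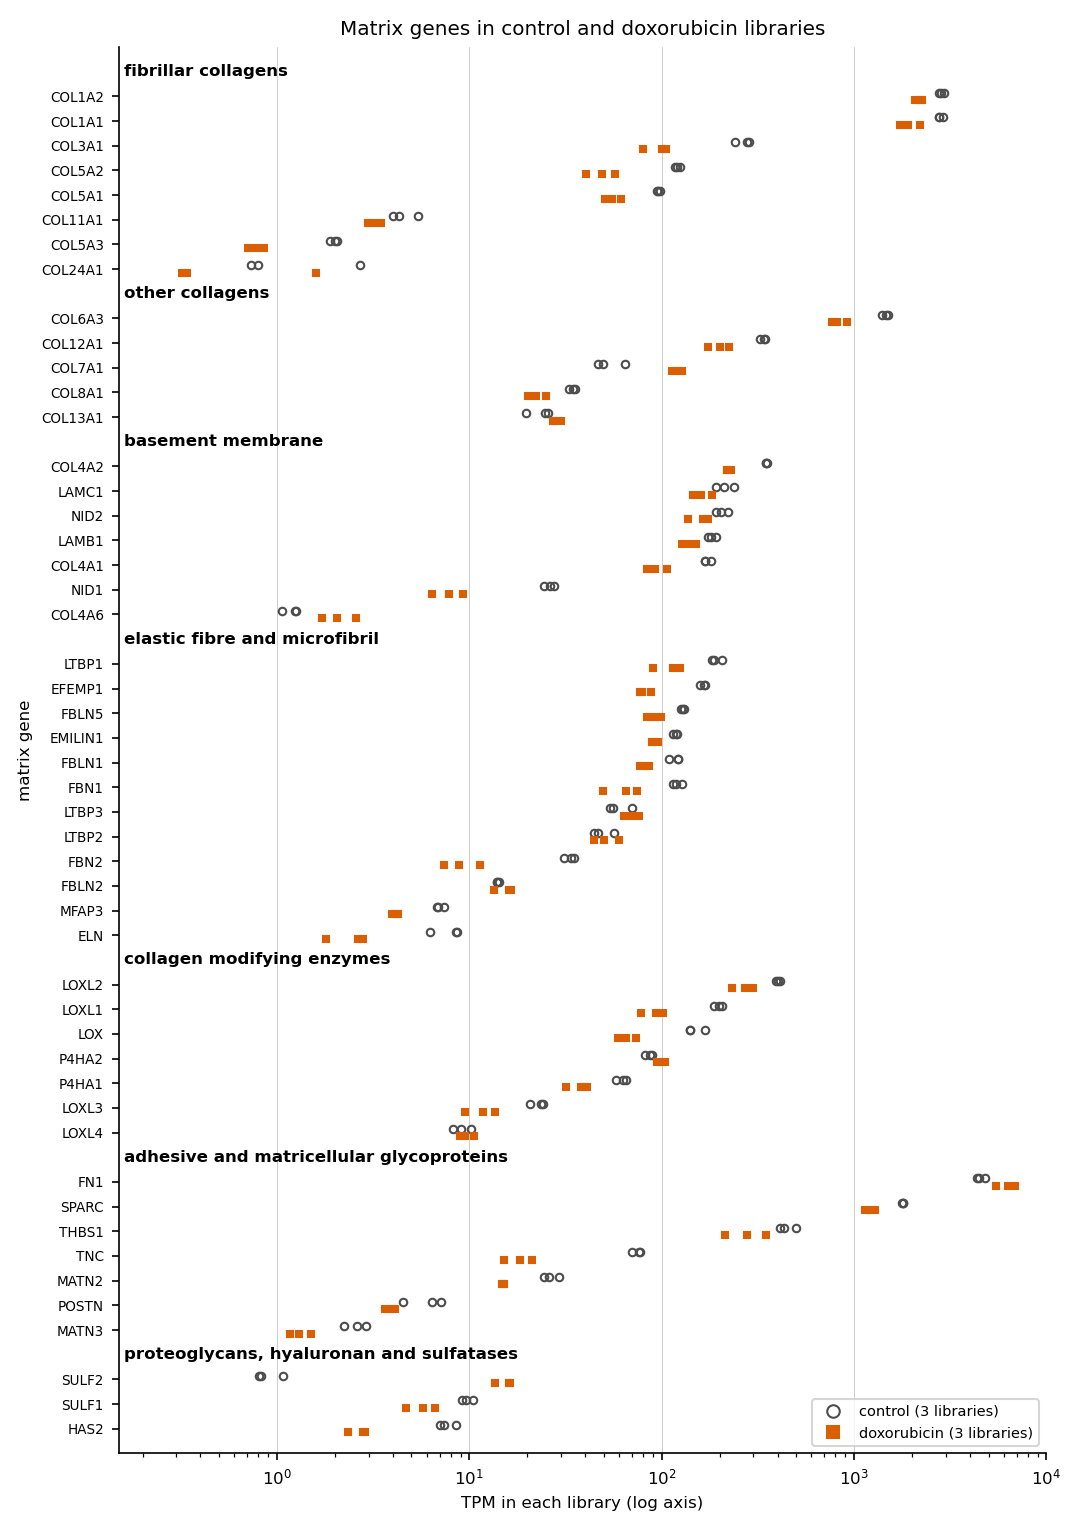
TPM of 49 of the 50 tested matrix genes in each of the 6 libraries on a log axis, in 7 classes, with open circles for control and filled squares for doxorubicin. FN1 is the highest gene in every library, most squares lie left of their circles, and the squares of SULF2 (13.6 to 16.2 TPM) lie far to the right of its circles (0.81 to 1.08 TPM).

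This balance depended in part on the scaling between libraries. After quantile normalization 35 matrix genes were called lower and 7 higher, and with the median of the tested genes set equal in all libraries 30 were lower and 11 higher. Of the matrix genes called, 11.6% were higher in the values as deposited, 16.7% with quantile normalization and 26.8% with equal medians, and of all genes called the shares were 31.9%, 53.0% and 59.9%. Both scalings moved the median of all tested genes from -0.28 to -0.02, while the median of the matrix genes was -0.56 and -0.35. A stricter filter, at a mean of at least 5 TPM, gave -0.66 for 43 matrix genes and 0.05 for 4203 genes. No matrix gene changed direction between the 3 scalings, and 29 were called lower and 4 higher in all of them. Among all 5721 genes tested, 1441 were called lower and 1221 higher in all 3 scalings.

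The fibrillar collagens form the striated fibres of the interstitial matrix, and 7 of the 8 tested were called lower, with no gene called higher (median log2 fold change -0.64). The chains of collagen I were the most abundant collagen transcripts. COL1A1 (ENSG00000108821, chromosome 17, 50183289 to 50201632, minus strand), which encodes the α1 chain, was at 2913, 2780.1 and 2781 TPM in control and at 1897, 1734 and 2201 TPM after doxorubicin. With means of 2825 ± 76.5 and 1944 ± 237 TPM (SD, n = 3 each), COL1A1 fell by 31.2% (log2 fold change -0.55, SE 0.08, adjusted p = 0.000199, limma). COL1A2 (ENSG00000164692, chromosome 7, 94394561 to 94431232, plus strand), the gene of the α2 chain, was at 2921, 2749 and 2831 TPM in control and at 2189.6, 2074 and 2256 TPM after doxorubicin. All 3 doxorubicin libraries lay below all control libraries for both chains, and the mean of COL1A2 fell by 23.3%. COL1A2 was not called with equal medians (log2 fold change -0.12).

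COL3A1 (ENSG00000168542, chromosome 2, 188974320 to 189012746, plus strand), the single chain of collagen III, had the largest fall of the class. It was at 283, 241 and 278 TPM in control and at 100.1, 80.4 and 106 TPM after doxorubicin, a log2 fold change of -1.48 (SE 0.10, adjusted p = 2.1e-06, limma). COL5A2 (ENSG00000204262, chromosome 2, 189031896 to 189225312, minus strand), a chain of collagen V, which sits inside collagen I fibrils and limits their diameter, was at 119, 124 and 118 TPM in control and at 49.2, 40.6 and 57.1 TPM after doxorubicin (log2 fold change -1.29, SE 0.11, adjusted p = 6.23e-06, limma). COL3A1 and COL5A2, the largest falls of the class on the log2(TPM + 1) scale, are neighbours on chromosome 2, on opposite strands and 19150 bp apart. The partner chain COL5A1 fell less, from 96.4 ± 1.83 to 55.6 ± 5.37 TPM (SD, n = 3 each). COL11A1, at 4.58 ± 0.737 TPM in control, and COL5A3, at 1.98 ± 0.0777 TPM (SD, n = 3 each), were also called lower, with log2 fold changes of -0.40 and -0.74. By the ratio of mean TPM COL5A3 fell slightly more (0.396) than COL5A2 (0.407). COL11A1 was called on neither of the other scalings. COL24A1 was at 0.73, 2.70 and 0.80 TPM in control and at 0.32, 0.34 and 1.60 TPM after doxorubicin. Its groups overlapped, with 1 library of each group far above the other 2, and it was not called.

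Among the other collagens 3 of the 5 tested were called lower and 2 higher (median -0.60). COL6A3 (ENSG00000163359, chromosome 2, 237324003 to 237414375, minus strand), a chain of the beaded filament collagen VI, was at 1506, 1401 and 1459 TPM in control and at 814, 768 and 921 TPM after doxorubicin, so that the mean fell by 42.7% without overlap between the groups (log2 fold change -0.81, SE 0.07, adjusted p = 5.71e-06, limma). COL12A1, which encodes a collagen that associates with collagen I fibrils, was at 341.5, 342 and 323 TPM in control and at 202, 175 and 224 TPM after doxorubicin (log2 fold change -0.75). COL8A1, the gene of a short-chain network collagen, fell from 34.4 ± 1.19 to 22.5 ± 2.46 TPM (SD, n = 3 each).

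COL7A1 (ENSG00000114270, chromosome 3, 48564073 to 48595267, minus strand) moved the other way. It encodes the collagen of the anchoring fibrils that tie epithelial basement membranes to the dermis, and it was at 64.2, 46.8 and 49.4 TPM in control and at 113, 127 and 122 TPM after doxorubicin. Its mean rose 2.25-fold, with a log2 fold change of 1.17 (SE 0.11, adjusted p = 1.5e-05, limma), and it was higher in all 3 scalings. COL13A1, a transmembrane collagen, was at 24.7, 25.7 and 19.8 TPM in control and at 29.9, 27.5 and 27.4 TPM after doxorubicin. The groups were close together, and its call (log2 fold change 0.27, SE 0.11, adjusted p = 0.0409, limma) was lost without any 1 of 4 libraries, with values of 0.31 without control replicate 1, 0.16 without control replicate 3, 0.23 without doxorubicin replicate 1 and 0.29 without doxorubicin replicate 2.

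Of the basement membrane genes, 6 of the 8 tested were called lower and 1 higher (median -0.39). Collagen IV of most tissues is built of 2 α1 chains and 1 α2 chain, whose genes COL4A1 (ENSG00000187498, chromosome 13, 110148963 to 110307233, minus strand) and COL4A2 (ENSG00000134871, chromosome 13, 110305812 to 110513209, plus strand) are read in opposite directions from a shared start region. COL4A1 was at 168, 179.8 and 168 TPM in control and at 92.1, 84.2 and 106 TPM after doxorubicin (log2 fold change -0.87, SE 0.08, adjusted p = 1.55e-05, limma). COL4A2 was at 350.4, 347 and 354 TPM in control and at 217, 218 and 230.4 TPM after doxorubicin (log2 fold change -0.66, SE 0.05, adjusted p = 3.75e-06, limma). Both genes fell in all 3 scalings with no overlap between the groups. The annotated genes overlap by 1422 bp, and the authors' notes used here do not say whether reads were counted by strand.

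Because these neighbouring genes fell together, the sequence around their starts is shown. Each window runs from 250 bases before to 50 bases after a gene's start, on the gene's own strand, as listed by RefSeq on GRCh38.p14. The COL4A1 window is chr13:110307108-110307407 (minus strand) and the COL4A2 window is chr13:110307034-110307333 (plus strand). Capitals mark matches on either strand. The TATA box was searched for with the letters TATAAA. The letters CCAAT stood for the box of that name. For the GC box the search used GGGCGG. An AP-1 site was taken as any match to TGANTCA.
COL4A1: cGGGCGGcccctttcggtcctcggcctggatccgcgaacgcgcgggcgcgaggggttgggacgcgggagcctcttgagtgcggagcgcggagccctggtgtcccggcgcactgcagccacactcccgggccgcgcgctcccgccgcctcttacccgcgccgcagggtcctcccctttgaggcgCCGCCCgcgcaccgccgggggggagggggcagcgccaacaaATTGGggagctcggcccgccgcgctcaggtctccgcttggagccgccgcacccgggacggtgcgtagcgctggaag
COL4A2: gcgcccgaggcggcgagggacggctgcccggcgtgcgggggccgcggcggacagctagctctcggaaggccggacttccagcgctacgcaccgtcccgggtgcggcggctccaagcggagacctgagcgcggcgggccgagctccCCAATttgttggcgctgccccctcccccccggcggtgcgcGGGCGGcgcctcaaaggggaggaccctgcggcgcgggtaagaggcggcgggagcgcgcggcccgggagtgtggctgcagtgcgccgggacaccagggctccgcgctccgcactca
The starts lie 127 bases apart and the windows share 226 bases. The CCAAT match (110307179 to 110307183) and 1 GC match (110307219 to 110307224) are the same bases in both windows, and neither window holds TATAAA.

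Nidogens link laminin to collagen IV. NID1 (ENSG00000116962, chromosome 1, 235975830 to 236065162, minus strand) was at 26.3, 27.7 and 24.5 TPM in control and at 7.83, 6.41 and 9.32 TPM after doxorubicin, and its mean fell by 70.0% (log2 fold change -1.63, SE 0.13, adjusted p = 4e-06, limma). NID2 was the more abundant nidogen and fell less, from 204, 221 and 191 TPM to 164, 137 and 174 TPM (log2 fold change -0.38). LAMC1, the γ1 chain found in most laminins, was at 209.8, 238 and 191.5 TPM in control and at 159, 146 and 183 TPM after doxorubicin (log2 fold change -0.39). The highest doxorubicin library of LAMC1 lay close to its lowest control library. LAMB1, the β1 chain, had nearly the same log2 fold change (-0.39), and NID2, LAMC1 and LAMB1 were not called with equal medians (log2 fold changes from -0.13 to -0.12). COL4A6, a collagen IV chain of epithelial and smooth muscle basement membranes, was the only basement membrane gene called higher in the TPM values, at 1.25, 1.06 and 1.24 TPM in control and 2.57, 1.72 and 2.06 TPM after doxorubicin (log2 fold change 0.51).

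**Figure D2:**
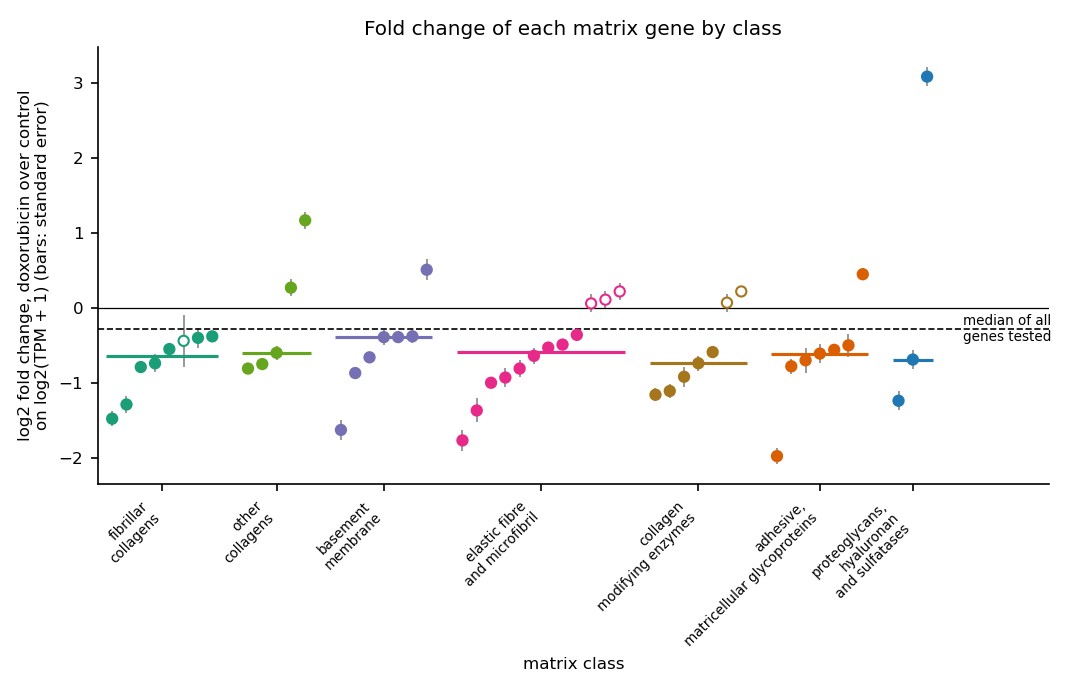
Log2 fold change of doxorubicin over control on log2(TPM + 1) for 49 of the 50 tested matrix genes, in 7 classes along the x axis, with bars for the standard error, filled points for called genes, open points for genes not called, a coloured line at each class median and a dashed line at the median of all tested genes (-0.28). All 7 class medians lie below the dashed line, between -0.74 and -0.39, although with equal medians between libraries that of the basement membrane moves to -0.13, and SULF2 at 3.09 and COL7A1 at 1.17 stand above the other genes.

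In the elastic fibre and microfibril class, 9 of 12 genes were called lower and none higher (median -0.58). The limma fit also called none higher with an unadjusted p, but 1 gene was called higher after quantile normalization, 3 with equal medians, and 1 without control replicate 1 or doxorubicin replicate 2. FBN2 (ENSG00000138829, chromosome 5, 128257909 to 128659185, minus strand), the fibrillin prominent in developing tissue, was at 33.8, 35.1 and 31.1 TPM in control and at 8.86, 7.42 and 11.4 TPM after doxorubicin, and its mean fell by 72.4% (log2 fold change -1.77, SE 0.14, adjusted p = 3.12e-06, limma). ELN (ENSG00000049540, chromosome 7, 74027789 to 74069907, plus strand), the elastin gene, was at 6.25, 8.65 and 8.53 TPM in control and at 1.80, 2.81 and 2.65 TPM after doxorubicin (log2 fold change -1.37, SE 0.16, adjusted p = 6.54e-05, limma). Both fell to about 0.3 of the control mean, with ratios of 0.276 and 0.310, and neither had any overlap between the groups. FBN1, the main fibrillin of adult tissue, fell from 120 ± 7.26 to 63.1 ± 12.4 TPM (SD, n = 3 each; log2 fold change -0.93).

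LTBP1, which holds latent TGF-β in the matrix, was the most abundant gene of this class, at 188, 207 and 183.5 TPM in control and 115, 90.4 and 125 TPM after doxorubicin (log2 fold change -0.81). EFEMP1 (fibulin 3) was at 166, 168 and 158 TPM in control and at 79.2, 77.4 and 87.4 TPM after doxorubicin, and its mean fell by 50.4%. FBLN5, a fibulin needed for elastic fibre assembly, was at 127, 129 and 131 TPM in control and at 91.1, 84.2 and 98.7 TPM after doxorubicin (log2 fold change -0.49). Each of these genes was lower in every doxorubicin library, although FBLN5 was not called with equal medians (-0.24). FBLN1, EMILIN1 and MFAP3 were called lower with log2 fold changes of -0.53, -0.36 and -0.64, EMILIN1 not with equal medians (-0.11) and MFAP3 not after quantile normalization (-0.25). The 3 genes not called were LTBP2, LTBP3 and FBLN2, with overlapping groups and log2 fold changes of 0.06, 0.22 and 0.11. FBLN2 was called higher after quantile normalization (0.35) and with equal medians (0.37). The latent TGF-β binding proteins thus did not move together, with LTBP1 lower and LTBP2 and LTBP3 not called on the TPM values, and with equal medians the latter were called higher (0.32 and 0.48).

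Of the collagen modifying enzymes, 5 of 7 were called lower (median -0.74). Lysyl oxidases oxidise lysines of collagen and elastin so that the chains can be cross-linked. LOX (ENSG00000113083, chromosome 5, 122063195 to 122078360, minus strand) was at 141, 167 and 139.9 TPM in control and at 65.4, 59.5 and 73.7 TPM after doxorubicin (log2 fold change -1.16, SE 0.09, adjusted p = 5.44e-06, limma). LOXL1, which is tied to elastic fibres, was at 205, 199 and 187 TPM in control and at 77.8, 93.7 and 101 TPM after doxorubicin (log2 fold change -1.11, SE 0.09, adjusted p = 5.42e-06, limma). LOXL2, the most abundant of the family, fell by less, from 402, 411 and 391 TPM to 271, 233 and 299 TPM (log2 fold change -0.59). The groups did not overlap for any of these 3 genes. LOXL3 was also lower (log2 fold change -0.92), and LOXL4, with overlapping groups around 9.15 ± 1.02 and 9.66 ± 0.837 TPM (SD, n = 3 each), was not called on the TPM values and was called higher after quantile normalization (0.37) and with equal medians (0.33).

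The prolyl 4-hydroxylase α subunits, which stabilise the collagen triple helix, were at different log2 fold changes. P4HA1 fell from 61.9 ± 3.44 to 36.9 ± 4.51 TPM (SD, n = 3 each; log2 fold change -0.74). P4HA2 was at 81.7, 86.5 and 88.7 TPM in control and at 101, 94.1 and 104 TPM after doxorubicin, higher in every library but below the fold of a call (log2 fold change 0.22, SE 0.07, adjusted p = 0.0126, limma). With equal medians P4HA2 was called higher (0.48).

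Among the adhesive and matricellular glycoproteins 6 of 7 were called lower and 1 higher (median -0.61). The exception was FN1 (ENSG00000115414, chromosome 2, 215360440 to 215436172, minus strand), fibronectin, the most abundant matrix transcript. It was at 4445, 4775 and 4351 TPM in control and at 6281, 5494 and 6885 TPM after doxorubicin. With means of 4524 ± 223 and 6220 ± 697 TPM (SD, n = 3 each), FN1 rose 1.37-fold (log2 fold change 0.45, SE 0.08, adjusted p = 0.00058, limma). After quantile normalization FN1 was not called (log2 fold change 0.23, adjusted p = 0.0484, limma), and it kept its call in the other 11 alternative fits. With the threshold at a fold change over 1.5 FN1 was not called either.

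TNC (ENSG00000041982, chromosome 9, 115019578 to 115118257, minus strand) had the largest fall of the 50 matrix genes. It encodes tenascin C, a glycoprotein that is high in developing and wounded tissue, and it was at 76.3, 69.8 and 77.4 TPM in control and at 18.4, 15.2 and 21.2 TPM after doxorubicin (log2 fold change -1.98, SE 0.11, adjusted p = 2.82e-07, limma). SPARC, a collagen-binding matricellular protein, was at 1792, 1783 and 1788 TPM in control and at 1211, 1140.4 and 1281 TPM after doxorubicin (log2 fold change -0.56). THBS1, thrombospondin 1, was at 432, 501 and 414 TPM in control and at 278, 213 and 349 TPM after doxorubicin, a wider spread than that of SPARC (log2 fold change -0.70, SE 0.17, adjusted p = 0.00703, limma). MATN2, a matrilin that joins filaments of the matrix, was at 29.4, 26.0 and 24.4 TPM in control and at 15.2, 14.96 and 14.9 TPM after doxorubicin (log2 fold change -0.78). MATN3 and POSTN (periostin), both under 7 TPM in the mean of each group, were called lower with log2 fold changes of -0.61 and -0.50, POSTN in neither of the other scalings.

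The windows around the starts of FN1, COL7A1 and TNC are shown as those of the abundant gene that rose, the collagen that rose most and the gene that fell most. They come from the same RefSeq list, with capitals as above, at chr2:215436019-215436318 for FN1, chr3:48595280-48595579 for COL7A1 and chr9:115118108-115118407 for TNC, all on the minus strand.
FN1: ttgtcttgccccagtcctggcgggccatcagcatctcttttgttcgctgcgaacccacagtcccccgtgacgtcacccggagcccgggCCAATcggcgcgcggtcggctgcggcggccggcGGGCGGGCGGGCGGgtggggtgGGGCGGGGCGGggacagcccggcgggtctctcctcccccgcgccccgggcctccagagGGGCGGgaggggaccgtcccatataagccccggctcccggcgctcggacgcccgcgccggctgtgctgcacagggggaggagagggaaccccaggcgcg
COL7A1: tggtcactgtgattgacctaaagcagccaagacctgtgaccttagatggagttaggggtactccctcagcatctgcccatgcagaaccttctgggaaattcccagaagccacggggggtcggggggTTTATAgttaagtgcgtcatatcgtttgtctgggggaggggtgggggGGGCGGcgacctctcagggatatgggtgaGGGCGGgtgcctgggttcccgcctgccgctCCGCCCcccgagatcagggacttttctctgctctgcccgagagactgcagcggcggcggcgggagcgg
TNC: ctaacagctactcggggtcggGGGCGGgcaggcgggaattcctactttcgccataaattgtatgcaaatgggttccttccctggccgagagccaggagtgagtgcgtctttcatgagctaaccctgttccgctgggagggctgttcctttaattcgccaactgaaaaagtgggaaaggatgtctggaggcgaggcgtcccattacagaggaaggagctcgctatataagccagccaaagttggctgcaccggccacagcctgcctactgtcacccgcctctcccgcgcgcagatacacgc
The FN1 window holds 6 GC matches, some of them overlapping, and 1 CCAAT match, that of COL7A1 3 GC matches and 1 TATAAA match, and that of TNC 1 GC match.

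Start windows were read for 42 matrix genes, 60 windows in all, and GGGCGG occurred in 60% of these against 45% of the 35116 windows searched. CCAAT occurred in 35% against 34.6%, TATAAA in 10% against 11.5%, and TGANTCA in 1.67% against 7.71%. Among the 33 windows of genes called lower the shares were 63.6%, 36.4%, 9.09% and 3.03% in the same order. These are letter matches and no binding sites. A gene with several starts, such as SULF2 or LOX, enters with each of its windows. Some windows overlap, such as those of COL4A1 and COL4A2, so the same bases can be counted more than once. The list of start windows held no entry for COL1A1, COL1A2, COL3A1 and ELN, so these genes are not in the shares of the matrix windows.

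The class of proteoglycans, hyaluronan and sulfatases had 3 listed genes, SULF2 called higher and SULF1 and HAS2 called lower. None of the proteoglycan genes that the class covers was listed, and the class median (-0.69) is the value of SULF1. SULF1 and SULF2 encode extracellular enzymes that remove 6-O-sulfate from heparan sulfate and so alter its binding of growth factors. SULF2 (ENSG00000196562, chromosome 20, 47656348 to 47786616, minus strand) was at 1.08, 0.83 and 0.81 TPM in control and at 16.0, 16.2 and 13.6 TPM after doxorubicin. The ratio of the means was 16.9, and the log2 fold change of 3.09 (SE 0.13, adjusted p = 2.68e-08, limma) was the largest of all matrix genes in either direction. The control mean of SULF2, 0.907 TPM, is itself under the filter of 1 TPM, so that it was tested through its doxorubicin values, as COL5A3 and COL24A1 were through their control values. SULF1 was at 10.5, 9.12 and 9.61 TPM in control and at 6.60, 4.71 and 5.76 TPM after doxorubicin (log2 fold change -0.69). SULF1 was the higher sulfatase in every control library and SULF2 the higher one in every doxorubicin library. HAS2, the main hyaluronan synthase of fibroblasts, was at 7.41, 8.57 and 7.05 TPM in control and at 2.88, 2.34 and 2.79 TPM after doxorubicin (log2 fold change -1.24, SE 0.13, adjusted p = 2.37e-05, limma).

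The matrix transcripts were also set against each other within each library, where the scaling between libraries plays no part in shares and ratios. Summed over the 56 listed matrix genes, their TPM was 18033 ± 307 in control and 15345 ± 1479 after doxorubicin (SD, n = 3 each). Without FN1 the sum was 13509 ± 227 and 9125 ± 785 TPM, lower by 32.5%. Unlike the shares, both sums depend on the scaling between libraries, and they are given for the values as deposited only. FN1 made up 24.4, 26.2 and 24.6% of the sum in control and 40.9, 39.6 and 40.9% after doxorubicin. Fibrillar collagens went from 34.1 ± 1.04 to 28.2 ± 0.436% of the sum, other collagens from 10.6 ± 0.321 to 7.86 ± 0.186%, and basement membrane genes from 6.39 ± 0.132 to 5.15 ± 0.0635% (SD, n = 3 each). Elastic fibre and microfibril genes went from 5.61 ± 0.0529 to 4.37 ± 0.0153% and collagen modifying enzymes from 5.14 ± 0.103 to 3.8 ± 0.0416% (SD, n = 3 each). The adhesive and matricellular class, which holds FN1, rose from 38.1 ± 1.06 to 50.5 ± 0.751% (SD, n = 3 each). That of SULF1, SULF2 and HAS2 rose from 0.102 ± 0.00262 to 0.155 ± 0.0202% (SD, n = 3 each). None of these shares overlapped between the groups. Shares of a sum are not independent of each other, and that of FN1 can rise through its own level and through the fall of the others.

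**Figure D3:**
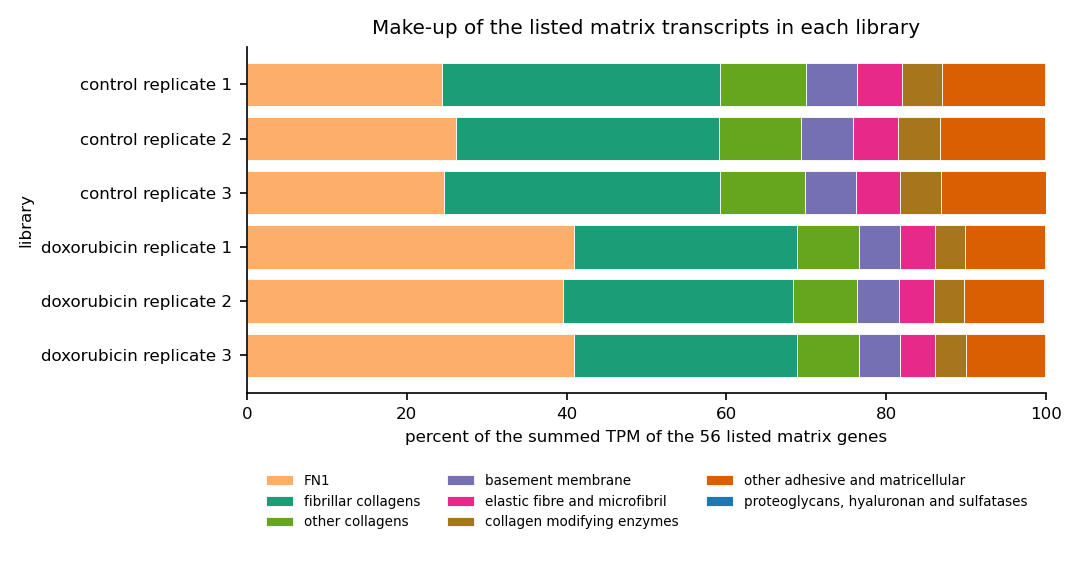
Share of each matrix class, with FN1 apart, in the summed TPM of the 56 listed matrix genes, as 1 stacked bar from 0 to 100% for each of the 6 libraries. FN1 takes 24.4 to 26.2% of the control bars and 39.6 to 40.9% of the doxorubicin bars, while fibrillar collagens take the largest part of the control bars (32.9 to 34.8%) and a smaller one than FN1 after doxorubicin (27.9 to 28.7%), and proteoglycans, hyaluronan and sulfatases (under 0.2%) are too thin to be seen.

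Ratios of TPM between matrix genes, mostly of the same polymer or family, were computed within each library for 12 pairs. The pairs, of which FN1 with COL1A1 and ELN with FBN1 share neither, were chosen after the values were seen. In 10 of them the groups did not overlap, with an exact two-sided permutation p of 0.1 each, the smallest 3 against 3 libraries can give (0.12 after Benjamini-Hochberg adjustment over the 12). Of the collagen pairs, the chains of collagen I stayed closest to their control proportion, with COL1A1 over COL1A2 at 0.997, 1.01 and 0.982 in control and 0.867, 0.836 and 0.975 after doxorubicin. For collagen V, COL5A1 over COL5A2 went from 0.801 ± 0.0319 to 1.15 ± 0.0874 (SD, n = 3 each), so that COL5A2 was the higher chain in control and COL5A1 after doxorubicin. COL4A1 over COL4A2 went from 0.491 ± 0.0241 to 0.424 ± 0.0379 and COL3A1 over COL1A1 from 0.0945 ± 0.00699 to 0.0490 ± 0.0033 (SD, n = 3 each). FN1 over COL1A1 was 1.53, 1.72 and 1.56 in control and 3.31, 3.17 and 3.13 after doxorubicin.

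Apart from LAMC1 over LAMB1, the ratios between paralogs computed here moved further than that of the chains of collagen I. FBN2 over FBN1 went from 0.278 ± 0.0072 to 0.146 ± 0.00893 and NID1 over NID2 from 0.128 ± 0.00204 to 0.0494 ± 0.00371 (SD, n = 3 each). P4HA2 over P4HA1 was 1.40, 1.33 and 1.41 in control and 2.67, 2.94 and 2.56 after doxorubicin. LOXL2 over LOX went from 2.70 ± 0.214 to 4.04 ± 0.111, and SULF2 over SULF1 from 0.0929 ± 0.00967 to 2.75 ± 0.605 (SD, n = 3 each). The ratios of LAMC1 to LAMB1 (1.18 ± 0.170 and 1.16 ± 0.0372) and of ELN to FBN1 (0.0650 ± 0.0111 and 0.0399 ± 0.0149; SD, n = 3 each) overlapped between the groups.

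**Figure D4:**
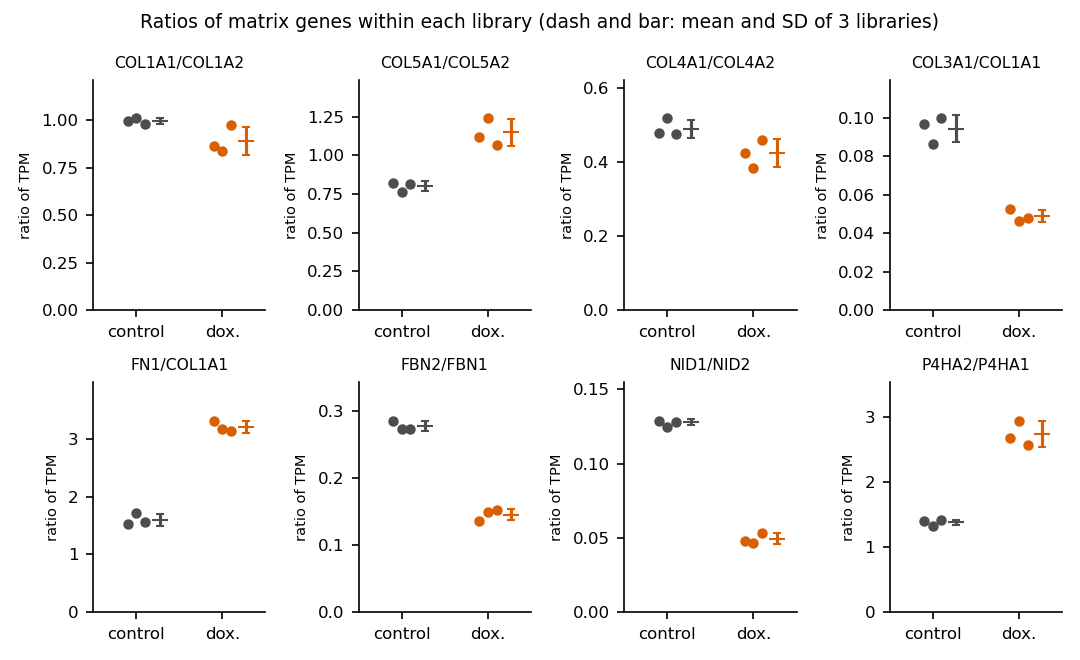
Ratio of TPM between 8 pairs of matrix genes within each library, 1 panel a pair with its own y axis from 0, as points for the 3 control and 3 doxorubicin libraries beside their mean and SD. COL1A1/COL1A2 moves least (0.997 to 0.892), and FN1/COL1A1 (1.60 to 3.20) and P4HA2/P4HA1 (1.38 to 2.73) move up without overlap.

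The non-coding RNAs lie at matrix genes. LOXL1-AS1, an antisense RNA that overlaps LOXL1 by 2260 bp, was at 15.1, 19.7 and 15.9 TPM in control and at 9.26, 8.63 and 11.6 TPM after doxorubicin (log2 fold change -0.72). THBS1-AS1 and THBS1-IT1 lie wholly inside THBS1, on the opposite and the same strand. THBS1-AS1 was at 11.6, 14.0 and 5.74 TPM in control and at 3.30, 1.02 and 6.86 TPM after doxorubicin, with overlapping groups, and it was not called. THBS1-IT1 was at 3.63, 0.84 and 1.59 TPM in control and at 5.30, 9.11 and 4.16 TPM after doxorubicin and was called higher (log2 fold change 1.30, SE 0.36, adjusted p = 0.0125, limma), while its host gene was lower. Since the sources used here do not say whether strand was used, reads of these RNAs and of their host genes cannot be told apart with certainty.

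The 6 matrix genes under the filter were not tested. COL11A2 was at 0.68 to 0.94 TPM in control and 1.03 to 1.34 TPM after doxorubicin, and COL15A1 at 0.22 to 0.57 and 0.11 to 0.18 TPM. LAMC3 reached 0.42 TPM in 1 doxorubicin library and 0.02 TPM at most in the other 5. COL6A6, COL9A1 and COL25A1 were listed at 0 in all control libraries and at up to 0.22, 0.13 and 0.10 TPM after doxorubicin.

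Genes that fold, trim and export collagen were taken from a list of 30, of which 13 were listed and 11 tested. Of these, 8 were called lower and 1 higher (median log2 fold change -0.57), while with equal medians 6 were lower and 3 higher and at a fold change over 1.5 there were 5 lower and 0 higher. SERPINH1, the collagen chaperone HSP47, was at 777, 729.9 and 794 TPM in control and at 393, 367 and 439.8 TPM after doxorubicin (log2 fold change -0.94, SE 0.07, adjusted p = 2.33e-06, limma). SEC23A, a coat protein of the vesicles that leave the endoplasmic reticulum, had a log2 fold change of -0.93, whereas FKBP10, a prolyl isomerase of the same compartment, was called higher (0.29), though not after quantile normalization (0.19). Of 34 genes that build glycosaminoglycan chains, 20 were listed and tested, with 14 called lower and 1, B3GAT3, higher (median -0.54). After quantile normalization 8 of them were called lower and 2 higher, with equal medians 9 and 4, and at a fold change over 1.5 there were 6 lower and 0 higher. UGDH, which makes the UDP-glucuronic acid used for hyaluronan and other chains, had the largest fall of that list (-0.88). For comparison with both lists, 48.5% of all 5721 tested genes were called lower in the values as deposited. The share was 29.2% once quantiles were normalized and 30.3% with equal medians. With the threshold at a fold change over 1.5, 1941 of the 5721 genes were called in either direction. Whether the genes of either list fell more often than all tested genes was not tested.

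Matrix genes are long, and length went with the fold change in the table as a whole. The median span on the genome was 89546 bp for the matrix genes and 32497 bp for all 5700 tested genes with a position, with a median of 25.5 and 9 exons. Across all tested genes, which are not independent, Spearman's rho between span and log2 fold change was -0.44, and across the 50 matrix genes it was -0.06. Of the 2025 tested genes within the quartiles of the matrix genes' spans (36364 to 161995 bp), 68.8% were called lower, with a median log2 fold change of -0.49, against -0.56 for the 24 matrix genes in that range. The part of gene length in the fall of the matrix genes was not tested.

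**Figure D5:**
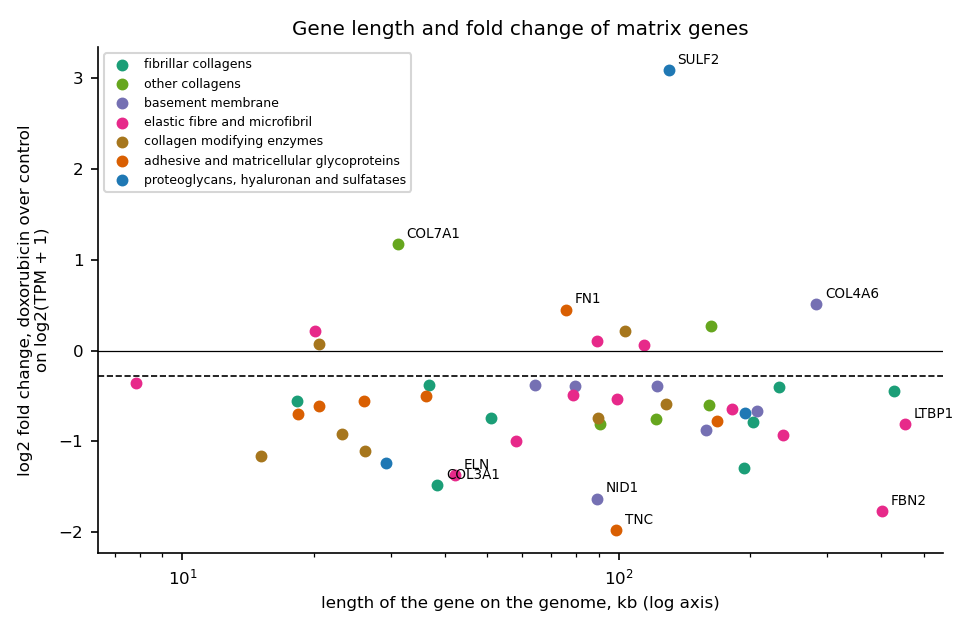
Log2 fold change of doxorubicin over control on log2(TPM + 1) against the length of 49 of the 50 tested matrix genes on the genome in kb (log axis), coloured by class, with the dashed line at the median of all tested genes (-0.28). Falls occur at all lengths, and Spearman's rho across the 50 genes is -0.06.

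Markers of cell types were read from fixed lists. The listed genes were read as those that passed the authors' thresholds of change. A marker that stayed level in the authors' comparison would then be missing, so cell identity cannot be judged here. KRT8 was listed although its groups overlapped and it was not called on the TPM values. Of 11 fibroblast markers 5 were listed (COL1A1, COL1A2, COL3A1, PDGFRA and PDGFRB), all called lower, and their summed level was 5842 to 6195 TPM in control and 3930 to 4616 TPM after doxorubicin. The collagens among them are matrix genes described above and make up most of this sum, which largely repeats their values. Of 5 smooth muscle and pericyte markers 4 were listed, with sums of 510 to 553 and 239 to 281 TPM, ACTA2 and CNN1 called lower, RGS5 called higher and MYH11 near 0. Of 5 epithelial markers the keratins KRT8, KRT18 and KRT19 were listed, with sums of 135 to 150 and 283 to 307 TPM and with KRT18 and KRT19 called higher. Of 4 leukocyte markers CD68 (47.2 ± 2.06 and 91.3 ± 3.41 TPM; SD, n = 3 each) and PTPRC, near 0, were listed, and of 4 endothelial markers none was. The part of these markers in the matrix results was not tested.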

How the data were processed

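Per the labels, total RNA of WI-38 cells was extracted with Trizol and sequenced in 9 libraries, and values were analysed for the 3 control and 3 doxorubicin libraries, whose columns match the sample titles. No oridonin library was analysed here. The authors' deposited values are one per gene and library, without a stated unit, and were read as TPM that the authors computed from gene-level abundance over all genes they quantified, since RSEM is among the tools named and the listed genes sum to 54.3 to 60.0% of such a total. The submitters' processing notes name CASAVA, HISAT2, StringTie, RSEM, DESeq2 and edgeR, with no role or version, and the mouse build GRCm38, although the gene identifiers are human. The roles of these tools are not given in the sources used here. Columns of the authors' own comparison (group means, fold change, p-values, direction) were not used. The methods give reads of 150 bp from both ends and thresholds of a fold change over 1.2 and p under 0.05. The listed genes were taken to have passed these thresholds in the authors' comparison.

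Values entered as log2(TPM + 1). Genes whose mean reached 1 TPM were tested (5721 of 6499), with 1 mean for each group in limma 3.58.1 (eBayes, trend and robust) in R 4.3.3. The design foresaw raw counts or normalized values, and the latter applied. The fit was tested on simulated data in which most genes were unchanged, unlike the preselected genes listed here, so that test does not bear on errors in this table. The members and lists were chosen with earlier results of these data known. Genes named in each class are the 3 with the highest mean and the 2 largest rises and falls among those called without overlap. Members named beside them were added after their values were seen. Positions are from GENCODE release 29 on GRCh38, which matched 6462 of 6499 genes, and start windows from RefSeq on GRCh38.p14, those on chromosome 8 not being used. Between libraries Pearson's r of log2(TPM + 1) across genes was 0.992 to 0.995 within a group and 0.935 to 0.958 between groups. Alternatives were a pseudocount of 0.1, no filter or a mean of at least 5 TPM, quantile normalization, equal medians, the replicate number as a block, unadjusted p, a fold change over 1.5, and fits without each library. Python 3.11.15, pandas 2.3.3, NumPy 2.4.6, SciPy 1.17.1 and matplotlib 3.10.9 were used. The values of 1 tested matrix gene are not reported here, and it stays in the counts and medians.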

Additional observations from a re-analysis of the deposited data

How the results depend on the processing

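The count of all tested genes called (4076) was 1941 at a fold change over 1.5, and that of matrix genes called higher (5) was 2 at that fold and 11 with equal medians, while matrix genes called lower stayed within 1.5 times of 38 in all 9 kinds of alternative. With equal medians between libraries the medians (log2 fold change) moved to -0.35 for all matrix genes, -0.38 for fibrillar collagens, -0.34 for other collagens, -0.13 for basement membrane, -0.32 for elastic fibre, -0.48 for collagen modifying enzymes, -0.36 for glycoproteins, -0.43 for the class of SULF1, SULF2 and HAS2, -0.31 for collagen folding and -0.28 for glycosaminoglycan assembly. After quantile normalization the class of SULF1, SULF2 and HAS2 was at -0.35 and glycosaminoglycan assembly at -0.22. Fibrillar collagens were at -0.85 with a pseudocount of 0.1 and -0.79 at a mean of at least 5 TPM, where basement membrane was at -0.52. With no filter the median of other collagens turned to 0.08, since 3 collagens listed at 0 in control then entered. The median of all tested genes was -0.15 with no filter and turned to 0.05 at a mean of at least 5 TPM, where fewer genes were tested. The cause was not tested for the other changes. Without 1 library at a time 36 to 38 matrix genes were called lower and 4 to 5 higher, with medians from -0.67 to -0.52, and 3709 to 4084 genes were called in all. Of 394 values for the 33 named genes in 12 alternative fits, 381 kept direction and call, 10 lost the call, 3 gained it and none reversed. The unadjusted p and the fold change over 1.5 are not part of that count. At a fold change over 1.5 calls such as that of FN1 were lost. THBS1-AS1 was called lower (-1.88) without doxorubicin replicate 3, and FKBP10 lost its call without that library. Libraries with the same replicate number did not deviate together (Pearson's r -0.0627, -0.193 and -0.23 across genes), and none correlated best with its own number, so the numbers were not treated as pairs. With the replicate number as a block 3892 genes were called, 38 matrix genes lower and 4 higher, and COL13A1 lost its call. Low transcripts such as COL24A1 and the collagens under 1 TPM are limited by a depth that is unknown.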

Other observations

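Within the doxorubicin group the matrix genes held a common order of libraries. Doxorubicin replicate 2 was the lowest of the 3 libraries in 41 of the 50 tested matrix genes (82%), against 51.8% of all tested genes, and doxorubicin replicate 3 was the highest in 39 (78%), against 56.2%. FN1, which was higher after doxorubicin, followed the same order as COL1A1, which was lower, with 5494 and 1734 TPM in replicate 2 and 6885 and 2201 TPM in replicate 3. The summed TPM of the 56 listed matrix genes was 15344, 13866 and 16824 in doxorubicin replicates 1, 2 and 3, and the share of all listed genes in a library was 59.2, 60.0 and 58.6%. In control no library stood out to this extent, with the lowest value in 9, 20 and 21 genes for replicates 1, 2 and 3. COL7A1 did not follow the order, with its highest doxorubicin value (127 TPM) in replicate 2.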
